A study of Mus musculus with 6 samples.

Results

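Of 33 genes of glycolysis and the pentose phosphate pathway, 29 were read in mouse pancreatic islets by at least 1 probe set that the platform annotation assigns to that gene alone. The genes were chosen by name, from glucose transport down to pyruvate and lactate, with the enzymes of the pentose phosphate branch and the opposing enzymes Fbp1 and Fbp2. They are 29 of the 18194 genes measured. The choice was made with earlier results of these data known, so shares over all genes printed beside their counts give no chance rate. Some genes of these steps, such as Slc2a2 and Ldha, are in a further list instead. Gpi1, Pfkfb1, Eno1 and G6pdx had no such probe set and were not analysed here. Where several probe sets read a gene, the brightest on average over the 6 arrays was taken, a choice that does not depend on the groups.

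The samples were islets of 12-week-old male C57Bl6 mice, 3 labelled Flox and 3 labelled with a Tead1 knockout confined to beta cells (Tead1KO), with 1 Affymetrix expression array each. Tead1 is a transcription factor of the Hippo pathway. The labels name neither the floxed allele of the Flox group nor the Cre driver of the knockout, so effects of a Cre transgene and of Tead1 loss cannot be told apart. Nothing in the labels says that each array came from a separate mouse, so p-values may measure technical spread only. The comparison asks which transcripts differ when beta cells, the insulin-secreting cells of the islet, lack Tead1.

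Glycolysis splits glucose into pyruvate, and in beta cells the rate of this flux sets the ATP that triggers insulin release. Beta cells phosphorylate glucose mainly with glucokinase and keep the hexokinase Hk2 low. The pentose phosphate pathway diverts glucose phosphate to make NADPH and ribose. Fructose bisphosphatases run the phosphofructokinase step backwards, as gluconeogenic tissues such as liver and kidney do.

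Values are log2 probe set signals, and each difference is Tead1KO minus Flox on that scale. Bacterial control probe sets without a spiked transcript read between 2.87 and 4.70, taken here as background. The array labelled Tead1KO replicate 3 stood apart, with spiked hybridization controls at 13.23 against 10.60 to 12.09 in the other 5 arrays and a mean correlation with the others of 0.969 against 0.984 to 0.986. The targeted gene did not separate the groups. Tead1 read 7.22, 6.99 and 7.40 on the Flox arrays against 6.72, 7.49 and 5.95 on the Tead1KO arrays (log2 difference -0.49, SE 0.36, limma adjusted p = 0.773, exact two-sided permutation p = 0.4, where 0.1 is the smallest possible). The Tead1 difference was -0.10 without Tead1KO replicate 3. The sources used here do not give where its probe set lies relative to the deleted part, so Tead1 does not check the labels. Islet hormones were high in every array, with Ins2 at 15.69 in Flox and 15.69 in Tead1KO, near the highest signal on any array (15.7). Other beta cell markers are given below.

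None of the 29 genes passed the test over all genes (limma, Benjamini-Hochberg adjusted p under 0.05), where 0.517% of all genes did (94 of 18194). At an unadjusted p under 0.05 there were 6, with 7.41% of all genes past that mark. Fbp1, Fbp2 and Gpd1 read higher in Tead1KO (3.08% of all genes did so at that mark), and Aldoc, Pkm and Tkt read lower (4.33% of all). The lowest adjusted p was that of Fbp2 (0.0892), the 1 member under 0.1, where 0.747% of all genes lay. Without Tead1KO replicate 3, 2 genes passed, Fbp1 and Fbp2, where 0.973% of all genes did. The count at an unadjusted p under 0.05 was 3 without Flox replicate 2 and 3 without Tead1KO replicate 1. The share of all genes at that mark without these arrays is not given here, so these counts do not set the members apart. Over all genes the count past the adjusted threshold was 20, 18 and 17 without Flox replicates 1, 2 and 3. It was 12, 303 and 177 without Tead1KO replicates 1, 2 and 3.

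**Figure D1:**
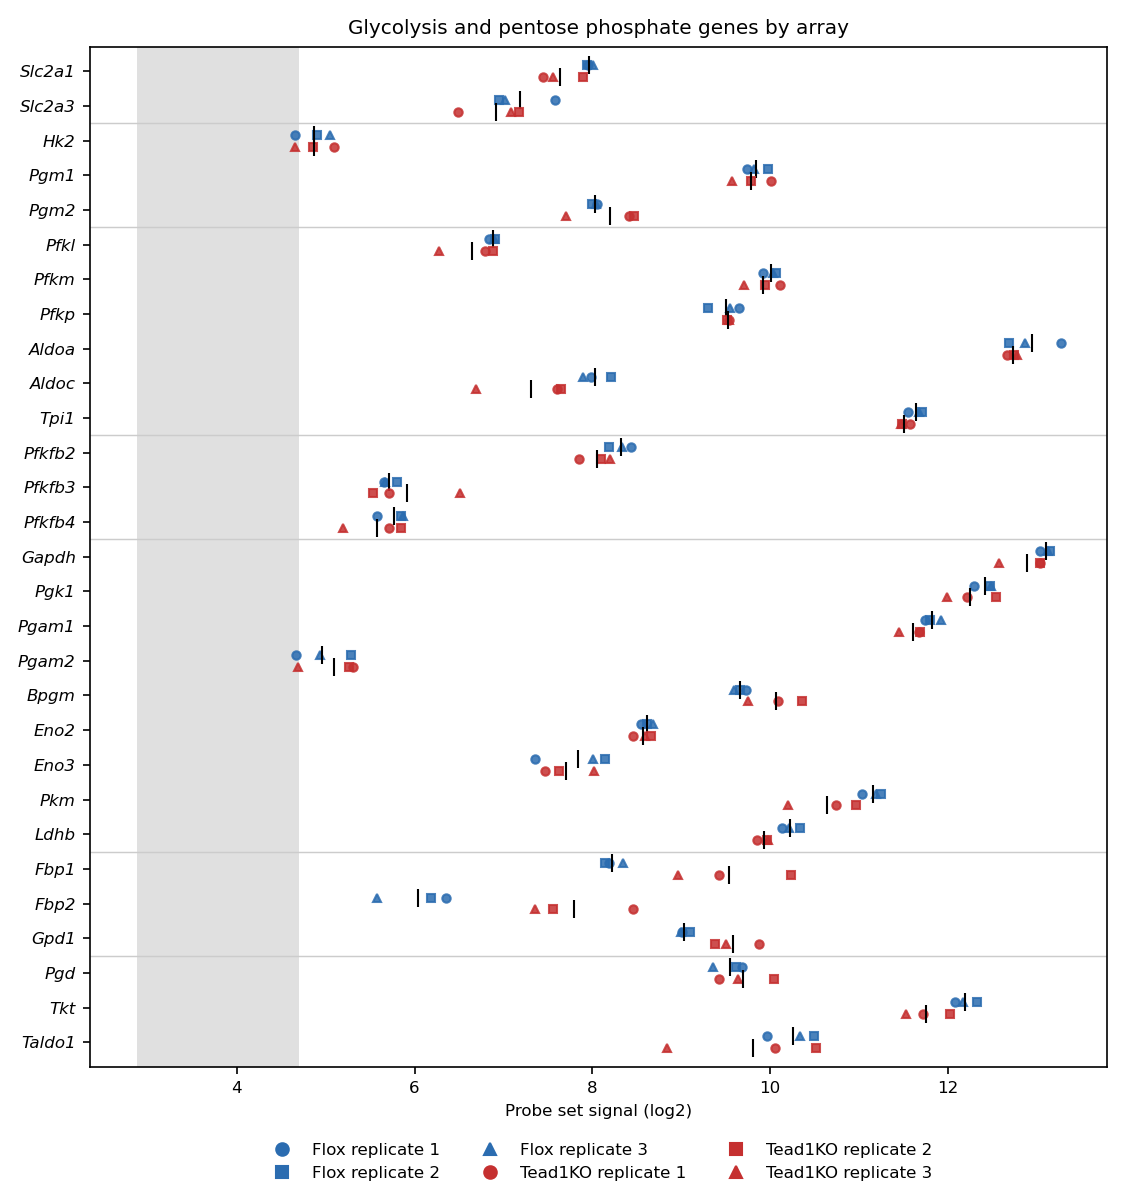
Probe set signal (log2, x axis) of the 29 genes, grouped by role between the horizontal lines; each point is an array, with Flox in blue, Tead1KO in red and a symbol for each replicate, black ticks mark the mean of a group, and shading spans the unspiked bacterial controls (2.87 to 4.70). Points of the groups are clearly apart for Fbp1 and Fbp2, while for most genes they overlap or lie close together.

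The 250 bases upstream of the start sites of 3 genes are shown because these genes hold the largest differences in either direction. They come from RefSeq (GRCm38.p6), 5′ to 3′ on the gene's strand. Capitals mark CACGTG, a general E-box, or GGAATG, the core of the TEAD motif, on either strand (reverse strand CATTCC). Many factors bind E-boxes, the glucose-responsive factor ChREBP among them, and a single CACGTG does not tell which. The Fbp2 stretch is chr13:62858401-62858650 (minus strand), that of Fbp1 is chr13:62888283-62888532 (minus strand) and that of Aldoc, for the more upstream of its 2 start sites, is chr11:78322823-78323072 (plus strand).
Fbp2: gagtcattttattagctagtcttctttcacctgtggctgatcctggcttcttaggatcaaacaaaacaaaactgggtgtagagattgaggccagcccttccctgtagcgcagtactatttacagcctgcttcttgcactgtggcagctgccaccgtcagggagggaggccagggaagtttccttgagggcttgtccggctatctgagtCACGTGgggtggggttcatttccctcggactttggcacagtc
Fbp1: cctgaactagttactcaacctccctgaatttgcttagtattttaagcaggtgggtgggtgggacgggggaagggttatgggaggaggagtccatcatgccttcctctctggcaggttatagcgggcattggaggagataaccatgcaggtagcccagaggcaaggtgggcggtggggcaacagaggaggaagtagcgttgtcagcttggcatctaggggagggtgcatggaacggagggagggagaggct
Aldoc: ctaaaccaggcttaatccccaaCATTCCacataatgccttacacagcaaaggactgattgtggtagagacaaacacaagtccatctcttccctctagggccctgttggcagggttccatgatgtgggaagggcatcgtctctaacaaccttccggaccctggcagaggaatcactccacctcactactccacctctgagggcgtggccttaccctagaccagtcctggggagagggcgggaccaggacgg

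The Fbp2 stretch holds 1 E-box, starting 42 bases before the start site, and the Aldoc stretch 1 TEAD core, starting 228 bases before it. These letters do not occur in the Fbp1 stretch, nor in the stretch before the other Aldoc start site (chr11:78323948-78324197, not shown). RefSeq gave 47 start sites for 31 of the 33 listed genes. An E-box lay upstream of 4 of them (8.51%), those of Fbp2, Pfkfb2, Pfkfb3 and Pfkm, against 6.02% of all 32851 start sites in the table. A TEAD core lay upstream of 7 (14.9%), in Aldoa, Aldoc, Eno1, Eno2, Eno3 and Pgm1, against 12.6% of all. Such matches describe letters, not bound sites.

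Among the 29 genes, the fructose bisphosphatases Fbp2 and Fbp1, followed by Gpd1, held the differences that lay furthest above 0. Fbp2, the isozyme known from muscle, read 6.35, 6.19 and 5.58 on the Flox arrays against 8.46, 7.56 and 7.36 on the Tead1KO arrays. Every Tead1KO array lay above every Flox array, and the lowest of them exceeded the highest Flox array by more than 1 SD of either group (Flox 6.04 ± 0.41, Tead1KO 7.79 ± 0.59, n = 3 each). The difference was 1.75 (3.37-fold, SE 0.32, limma unadjusted p = 0.000642, adjusted p = 0.0892). Fbp1, the isozyme known from liver and kidney, read 8.19, 8.14 and 8.34 on the Flox arrays against 9.43, 10.23 and 8.96 on the Tead1KO arrays. The groups again did not overlap, and the Tead1KO arrays were more spread (SD 0.64 against 0.10, n = 3 each). The difference was 1.31 (2.48-fold, SE 0.30, limma unadjusted p = 0.00236, adjusted p = 0.179). Without Tead1KO replicate 3 the differences were 1.97 for Fbp2 (adjusted p = 0.0419) and 1.60 for Fbp1 (adjusted p = 0.0294). Both passed with quantile normalization too (1.81, adjusted p = 0.0424, and 1.45, adjusted p = 0.0222), where 0.841% of all genes passed. With the mean of the spiked controls as a covariate 1.33% of all genes passed, among them Fbp1 (1.71, adjusted p = 0.00244) but not Fbp2 (1.69, adjusted p = 0.054). Without any other single array the adjusted p of Fbp2 lay between 0.0539 and 0.395 and that of Fbp1 between 0.0563 and 0.709. Each gene was read by 1 probe set only, so no further probe set bears on either value.

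Fbp2 and Fbp1 lie next to each other on chromosome 13, on the same strand. Of the next protein-coding genes beyond Fbp1 in RefSeq, Aopep, an aminopeptidase gene, read 10.46 ± 0.15 in Flox against 9.80 ± 0.36 in Tead1KO (n = 3 each). It was lower without overlap (a difference of -0.67, limma unadjusted p = 0.0121, adjusted p = 0.396). Fancc, a DNA repair gene, differed by 0.48 (adjusted p = 0.779), and by 0.081 without Tead1KO replicate 3. On the other side, Gm5141 read within background in both groups. Neither Aopep nor Fancc showed a difference of the size and sign seen in the Fbp genes, and what underlies the Fbp values was not tested.

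Gpd1, the cytosolic glycerol phosphate dehydrogenase, draws on a glycolytic intermediate and passes reducing power to mitochondria. It read 9.01, 9.10 and 9.0 on the Flox arrays against 9.88, 9.38 and 9.50 on the Tead1KO arrays, with no overlap (log2 difference 0.55, SE 0.17, limma unadjusted p = 0.0127, adjusted p = 0.402). Its 2 further probe sets above background differed by 0.48 and 0.21. Its mitochondrial partner Gpd2, not among the 29, read 10.46, 11.20 and 11.01 on the Flox arrays against 10.21, 10.84 and 9.09 on the Tead1KO arrays. The groups overlapped and replicate 3 was by far the lowest (log2 difference -0.85, limma adjusted p = 0.707, and -0.37 without that replicate).

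Since whole islets were measured, fewer cells of a type and less RNA per cell cannot be told apart. Markers of other cells were set beside these values. The 5 skeletal muscle markers averaged 4.78 to 4.93 in the Flox arrays and 4.81 to 4.90 in the Tead1KO arrays, near background in both, and 2 of them (Tnnt3 and Myh4) lay within it. The 6 stromal markers all read higher in Tead1KO (list mean 6.72 to 6.96 in Flox, 6.97 to 7.55 in Tead1KO), with Dcn at 1.11 (adjusted p = 0.2) and Col1a2 at 0.62 (adjusted p = 0.325). Without Tead1KO replicate 3, Dcn was at 1.28 and Col1a2 at 0.70, while Pdgfra went from 0.039 to -0.057. Of 5 pericyte and smooth muscle markers 4 read lower (list mean 7.58 to 7.81 in Flox, 7.06 to 7.39 in Tead1KO), with Myh11 at -0.86 (adjusted p = 0.169). The 5 measured beta cell markers averaged 12.65 to 12.85 in Flox and 12.12 to 12.57 in Tead1KO. Nkx6-1 differed by -0.95 (limma adjusted p = 0.0637), Pdx1 by -0.66 (adjusted p = 0.541) and Slc30a8 by -0.48 (adjusted p = 0.668). Without Tead1KO replicate 3 these differences were -0.87, -0.43 and -0.33. Ins2 and Iapp, the brightest of the list, differed by -0.0050 and 0.032. The 5 measured acinar markers averaged 12.30, 14.14 and 14.39 in Flox replicates 1 to 3. In Tead1KO replicates 1 to 3 they averaged 12.45, 14.33 and 13.58, so exocrine signal varied within each group and was lowest in replicate 1 of both. The part of these lists in the Fbp1, Fbp2 and Gpd1 values was not tested.

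**Figure D2:**
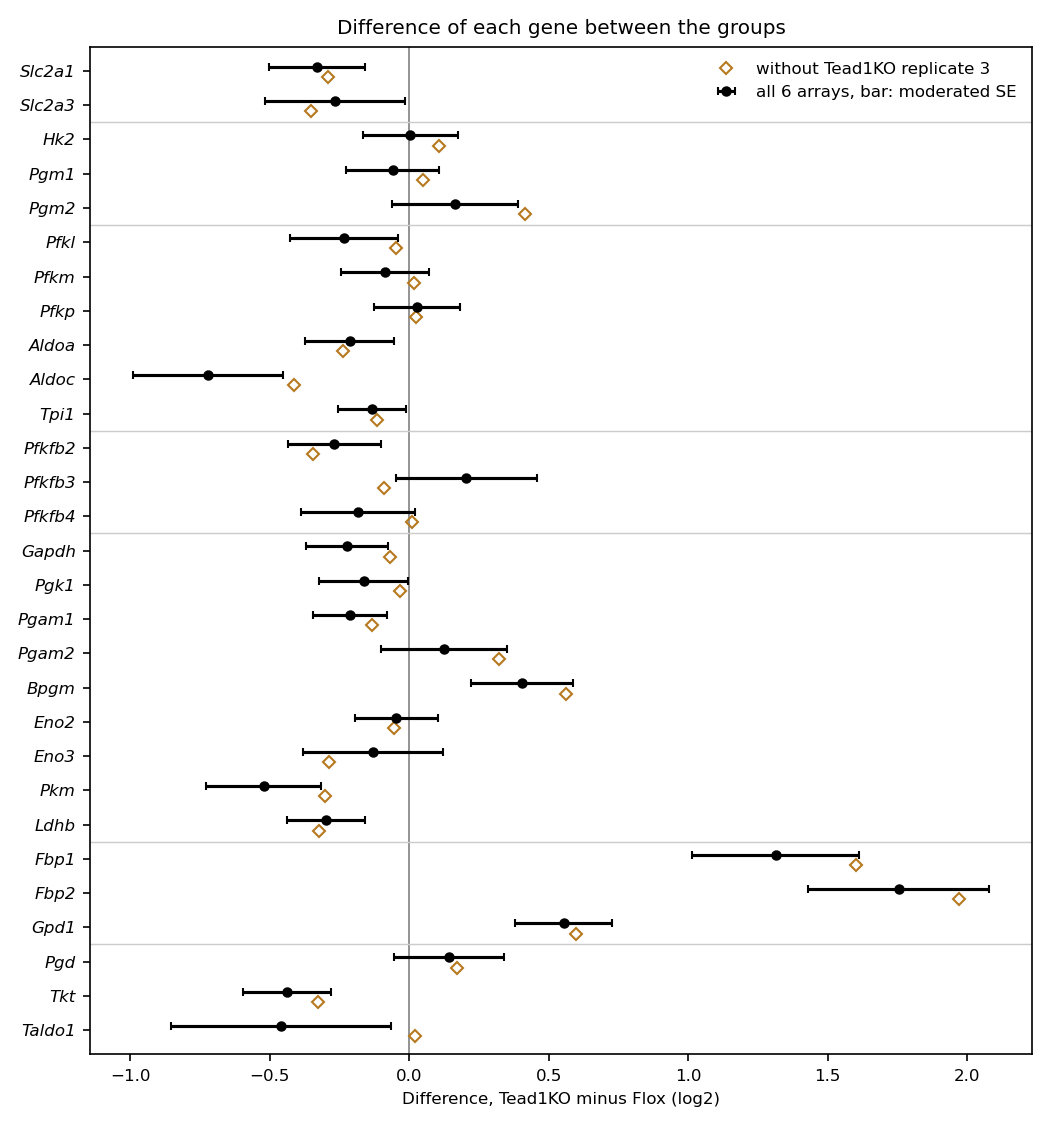
Difference between groups (Tead1KO minus Flox, log2, x axis) of each of the 29 genes; black points with bars are the difference and its moderated SE over 6 arrays, open diamonds the difference without Tead1KO replicate 3. Fbp1, Fbp2 and Gpd1 lie to the right of 0 by both measures, whereas the lower values of Aldoc (-0.72) and Pkm (-0.52) are nearer to 0 without that array (-0.41 and -0.30).

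Genes of glucose entry did not pass the test. Slc2a1, the glucose transporter GLUT1, read 7.95, 7.94 and 8.01 on the Flox arrays against 7.45, 7.90 and 7.56 on the Tead1KO arrays, lower without overlap (log2 difference -0.33, SE 0.17, adjusted p = 0.73). Its 2 dimmer probe sets differed by -0.40 and -0.24. Slc2a3, the transporter GLUT3, differed by -0.26, with overlapping arrays. Hk2 read 4.65, 4.90 and 5.05 in Flox and 5.09, 4.86 and 4.66 in Tead1KO, at the upper edge of background in both groups (difference 0.0043, SE 0.17). Pgm1, which links glucose phosphates to glycogen, differed by -0.06 (0.08 with quantile normalization) and Pgm2, which acts on pentose phosphates, by 0.17 (0.41 without Tead1KO replicate 3).

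In upper glycolysis 5 of 6 genes lay below 0, and no gene passed. The phosphofructokinases Pfkl, Pfkm and Pfkp, which catalyse the committed step opposed by Fbp1 and Fbp2, differed by -0.23, -0.09 and 0.03 (SE 0.19, 0.16 and 0.15). The last of these turned to -0.03 with median centring, and Pfkm to 0.06 with quantile normalization. The Pfkl difference was -0.048 without Tead1KO replicate 3. Aldoc, the aldolase known from brain, read 7.98, 8.21 and 7.90 on the Flox arrays against 7.60, 7.65 and 6.69 on the Tead1KO arrays. All 3 Tead1KO arrays lay below the Flox arrays, replicate 3 by far the most (log2 difference -0.72, SE 0.27, limma unadjusted p = 0.0283, adjusted p = 0.571). The difference was -0.41 without that replicate. Aldoa, the common aldolase, differed by -0.21 and its 5 probe sets by -0.11 to -0.52. Tpi1, the triose phosphate isomerase, differed by -0.13.

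The Pfkfb enzymes make and break the sugar bisphosphate that switches phosphofructokinase on and fructose bisphosphatase off. Pfkfb2 differed by -0.27, Pfkfb3 by 0.21 and Pfkfb4 by -0.18, with overlapping arrays in each case. The values of Pfkfb3 were 5.66, 5.80 and 5.67 in Flox and 5.71, 5.53 and 6.51 in Tead1KO. On this probe set only Tead1KO replicate 3 was high, and without it the Pfkfb3 difference was -0.09. Its dimmer probe set read 5.27, 5.45 and 5.30 in Flox and 6.19, 5.79 and 5.36 in Tead1KO (difference 0.44, SE 0.22, limma adjusted p = 0.843). There replicates 1 and 2 were high and replicate 3 lay among the Flox arrays, so the 2 probe sets differ in which arrays stand out.

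In lower glycolysis 7 of 9 genes lay below 0, by -0.05 to -0.52, and none passed. Pkm, the pyruvate kinase that ends the pathway, read 11.03, 11.25 and 11.19 on the Flox arrays against 10.74, 10.97 and 10.20 on the Tead1KO arrays. The groups did not overlap (log2 difference -0.52, SE 0.21, limma unadjusted p = 0.0362, adjusted p = 0.622), and replicate 3 was again the lowest. The difference was -0.30 without it. Ldhb, a lactate dehydrogenase subunit, read 10.13, 10.34 and 10.21 in Flox and 9.85, 9.96 and 9.98 in Tead1KO (difference -0.30, SE 0.14, adjusted p = 0.696). Its 3 further probe sets differed by -0.35, -0.71 and -0.84, all with overlapping arrays.

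Gapdh, often used as a reference transcript, was read here through the array's own quality-control probe sets, since no regular probe set carried its symbol alone. It read 13.11 ± 0.06 in Flox against 12.89 ± 0.26 in Tead1KO (n = 3 each, difference -0.22, adjusted p = 0.772), and -0.07 without Tead1KO replicate 3. Pgk1 differed by -0.16 (-0.033 without that array) and Pgam1 by -0.21 (-0.13 without it). Eno2, the enolase of neurons and endocrine cells, differed by -0.05 (0.09 with quantile normalization), and Eno3, that of muscle, by -0.13 (-0.29 without that array). Pgam2, the muscle phosphoglycerate mutase, read near background, 4.96 in Flox and 5.09 in Tead1KO. Bpgm, which makes bisphosphoglycerate and is abundant in red blood cells, ran the other way. It read 9.73, 9.66 and 9.59 in Flox and 10.09, 10.36 and 9.75 in Tead1KO, without overlap but with replicate 3 only just above the Flox arrays (difference 0.40, SE 0.18, adjusted p = 0.687). Its 2 further probe sets differed by 0.45 and 0.36. Of the 3 measured red cell markers, Hba-a1 read within background and Alas2 and Slc4a1 differed by 0.26 and 0.16 (0.38 and -0.072 without Tead1KO replicate 3). The list mean was 4.75 to 5.08 in Flox and 5.07 to 5.24 in Tead1KO, and its part in the Bpgm value was not tested.

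In the pentose phosphate branch, Tkt had the lowest p. Tkt encodes transketolase, which shuttles carbon units back to glycolysis. It read 12.08, 12.33 and 12.17 on the Flox arrays against 11.72, 12.02 and 11.53 on the Tead1KO arrays, lower without overlap (log2 difference -0.44, SE 0.16, limma unadjusted p = 0.0234, adjusted p = 0.535). The other Tkt probe sets differed by -0.46, also without overlap, and by -0.27. Without Tead1KO replicate 3 the difference was -0.33. Taldo1, transaldolase, works beside Tkt. It read 9.96, 10.49 and 10.34 in Flox and 10.05, 10.52 and 8.84 in Tead1KO. Only replicate 3 was low, and the difference of -0.46 became 0.02 without it. Pgd, a source of NADPH in the oxidative arm, differed by 0.14, and its 4 probe sets did not share a sign (-0.08 to 0.14).

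The genes as a whole lay slightly below 0. Of the 29, 19 had a negative difference, against 51.1% of all genes, and their median was -0.13, against -0.0074 over all genes. The members' median was -0.064 with quantile normalization. Without Tead1KO replicate 3 it was -0.048, with 16 of the 29 below 0. Among the 3695 genes with a mean above 9, 73.9% lay below 0 (median -0.13), and so did 11 of the 15 members above that level (median -0.16). Without Tead1KO replicate 3 the share below 0 was 55.5% of these bright genes (median -0.022) and 8 of the 15 bright members (median -0.033). The share among bright members was thus near that of bright genes at large in both cases. Relative to the Flox means, the median of the 15 bright members was -0.14, -0.067 and -0.27 in Tead1KO replicates 1 to 3, and that of all bright genes was -0.09, 0.05 and -0.35. The medians differed in sign in replicate 2, and replicate 3 was the lowest in both. Of the 29 genes 10 had groups that did not overlap, 4 higher and 6 lower, where 13.1% of all genes did (5.8% higher and 7.27% lower).

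**Figure D3:**
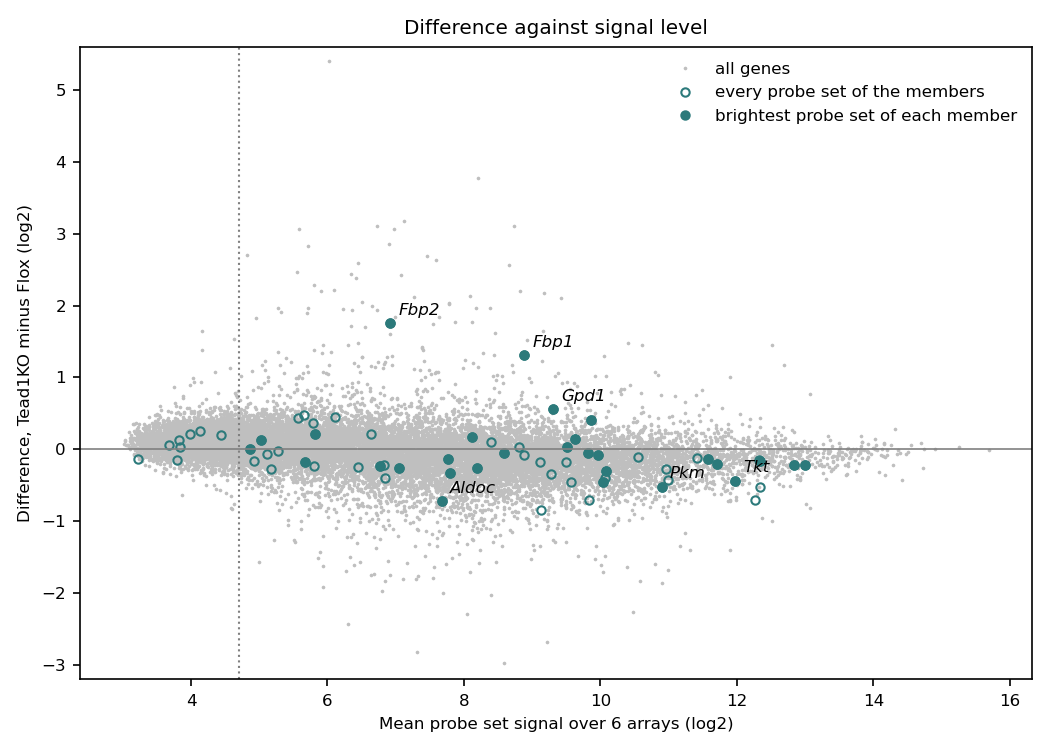
Difference between groups (Tead1KO minus Flox, log2, y axis) against the mean signal over 6 arrays (log2, x axis); grey dots are all 18194 genes, filled circles the probe set used for each of the 29 genes, open circles their other probe sets, and the dotted line is the highest unspiked control, 4.70. Above a mean of 9 most genes lie below 0 (73.9%, and 55.5% without Tead1KO replicate 3), and Fbp1 and Fbp2 lie above the bulk of genes of like signal.

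The 29 genes were read by 67 probe sets, of which 59 lay above background in at least 1 group. Tested singly, 0 of the 59 passed over all probe sets (limma, where 0.269% of all did) and 11 had an unadjusted p under 0.05 (6.02% of all). The shares are over all 34958 probe sets, dim ones included, so they are not like for like. Of the 11, Ldhb, Tkt and Gpd1 gave 2 each. Of the 14 genes with more than 1 probe set above background, 13 had all of them on the same side of 0, 10 lower and 3 higher (Bpgm, Gpd1 and Pfkfb3). The exception was Pgd. The sign of these 13 genes was thus the same for each probe set above background, while sizes varied, as for Pgk1 (-0.16, -0.71 and -0.18).

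Isoform choice within each enzyme family was compared through the difference between a pair of isoforms on the same array, which cancels a shift common to both. A shift that depends on signal level is not cancelled for isoforms of unlike brightness, such as Pgam1 and Pgam2. In Tead1KO replicate 3 the median relative to the Flox means was -0.05 over all genes and -0.35 over genes with a mean above 9. Of 12 pairs in 8 families, 0 had groups that did not overlap. Exact two-sided permutation p-values ran from 0.2 to 0.9, with 0.1 the smallest possible, and from 0.8 upwards after Benjamini-Hochberg adjustment over the 12 pairs. Fbp1 minus Fbp2 shifted by -0.44 (SD 0.51 in Flox and 0.86 in Tead1KO, n = 3 each, exact p = 0.4), so a change in their balance was not detectable beyond the spread between arrays. It moved most in Tead1KO replicate 1, where Fbp2 was highest, and the other way in replicate 2, where Fbp1 was highest. Aldoa minus Aldoc shifted by 0.51 (exact p = 0.4) and Pfkfb2 minus Pfkfb3 by -0.47 (exact p = 0.2), both widest in replicate 3. Phosphofructokinase pairs shifted by -0.11 to -0.26 and the enolase pair by 0.08. The count of pairs without overlap was 2 without Flox replicate 1, 2 without Flox replicate 2, 3 without Tead1KO replicate 2 and 3 without Tead1KO replicate 3. With an array left out, groups fail to overlap more easily by chance. These counts therefore do not compare with the 0 over all 6 arrays and do not show isoform shifts.

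**Figure D4:**
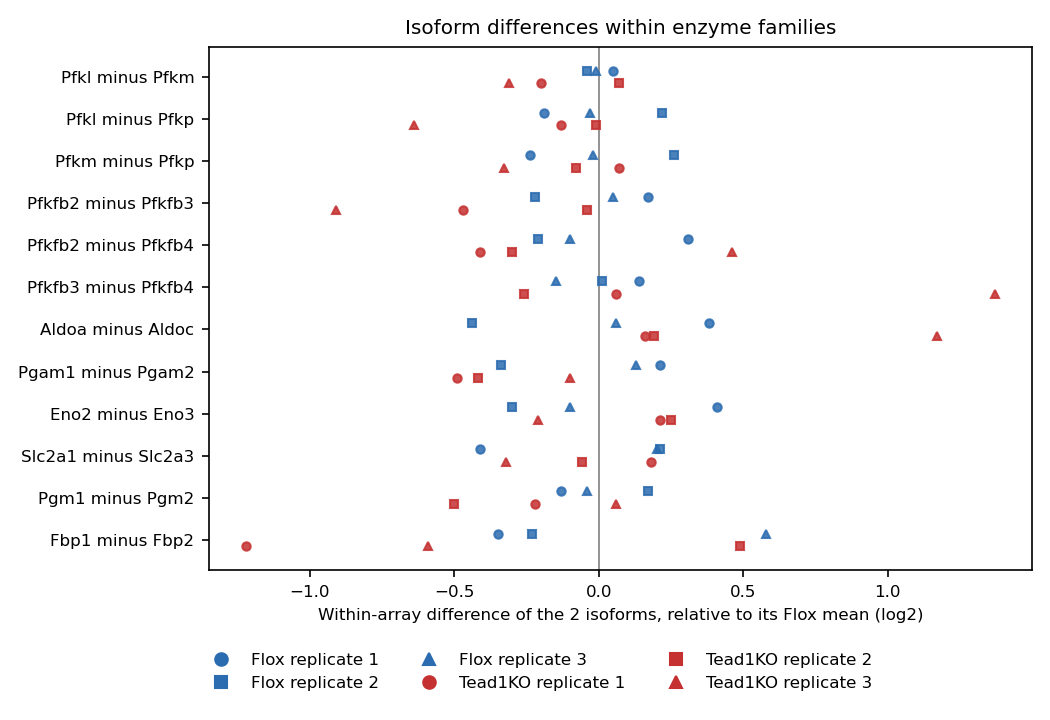
Difference between 2 isoforms on the same array, relative to the mean of that difference in Flox (log2, x axis), for 12 pairs within enzyme families (y axis); each point is an array, with Flox in blue, Tead1KO in red and a symbol for each replicate. Flox and Tead1KO points overlap in all 12 pairs, and Tead1KO replicate 3 is farthest out for Aldoa minus Aldoc and the Pfkfb3 pairs.

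Other genes around these pathways did not pass either. Over all genes 0.517% passed and 7.41% had an unadjusted p under 0.05 (limma). Of 23 measured further genes of glycolysis, gluconeogenesis and lactate handling, 0 passed and 5 had an unadjusted p under 0.05. Tigar, which lowers the activator of phosphofructokinase, differed by -1.09 (adjusted p = 0.188), the glucose transporter Slc2a2 by -0.82 (adjusted p = 0.194) and Pcx, pyruvate carboxylase, by -0.77 (adjusted p = 0.394). The hexokinase-like Hkdc1 differed by 0.62 (adjusted p = 0.415). Of 10 further pentose phosphate genes 0 passed and 2 had an unadjusted p under 0.05. These were Rpia, ribose phosphate isomerase (-0.74, adjusted p = 0.143), and H6pd, the hexose phosphate dehydrogenase of the endoplasmic reticulum (-0.60, adjusted p = 0.613).

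Genes that respond to glucose, low oxygen or oxidative stress were set beside them, with the same shares over all genes (0.517% passed, 7.41% at an unadjusted p under 0.05). Of 11 ChREBP-related genes 0 passed (2 at an unadjusted p under 0.05), with Txnip, an inhibitor of thioredoxin, at 0.77 (adjusted p = 0.293) and Acly, ATP citrate lyase, at -0.35 (adjusted p = 0.593). Of 16 hypoxia-inducible genes outside glycolysis 0 passed (3 at an unadjusted p under 0.05), and they did not share a sign, with Pdk1, a pyruvate dehydrogenase kinase, at 0.55 and P4ha2, a prolyl hydroxylase, at -0.88. Of 10 NRF2 targets 0 passed (2 at an unadjusted p under 0.05). Of these 10, 8 lay below 0, against 51.1% of all genes, and the median was -0.33. Among them were Nqo1, a quinone reductase, at -0.74 (adjusted p = 0.309) and Gsr, glutathione reductase, at -0.50 (adjusted p = 0.402). Without Tead1KO replicate 3 Nqo1 differed by -0.56 and Gsr by -0.43. Txnrd1 went from -0.79 to -0.31 and Nfe2l2 from -0.45 to -0.29 without that array.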

How the data were processed

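Deposited values are log2 probe set signals. Per the submitters' processing notes the authors used Affymetrix Expression Console, whose version and settings the sources used here do not give. That the scale is log2 was inferred from the values, which ran from 2.75 to 15.7. Of 45101 probe sets, 34958 carried 1 gene symbol in the platform annotation and 932 carried several. A gene was represented by its brightest probe set on average over 6 arrays, with no filter or pseudocount. Quality-control probe sets for mouse genes were kept, unlike bacterial ones. Groups were compared over 18194 genes with limma (3.58.1, under R 4.3.3; lmFit, eBayes with trend=TRUE, no covariate, Benjamini-Hochberg over all genes). SD is over 3 arrays, SE is the moderated standard error, and the number of arrays limits the precision. Isoform pairs used exact permutation tests (scipy version 1.17.1). The procedure was tested on simulated data. All 29 genes matched a RefSeq gene by identifier. The members and lists were chosen with earlier results of these data known. Named were all members, Tead1, the genes with the lowest unadjusted p in each further list (up to 4), markers, and, after their values were seen, Gpd2 and the neighbours of Fbp1 and Fbp2. The alternatives were other normalizations, filters, probe set summaries, variance priors, a covariate, a replicate block and each array left out. Testing each probe set singly, and leaving out Tead1KO replicate 3 for genes outside the 29 and for counts of signs, were added after the data were seen.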

Additional observations from a re-analysis of the deposited data

How the results depend on the processing

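The count of all genes past the adjusted threshold, 94 as reported, was 153 with quantile normalization, 58 after median centring and 242 when the spiked controls entered as a covariate. With single arrays left out it ranged from 12 to 303. The count of the 29 members past it, 0 as reported, was 2 with quantile normalization, 1 with that covariate (Fbp1, 1.71), 1 at an adjusted p under 0.1 (Fbp2), and 0 to 2 with single arrays left out. The members' count at an unadjusted p under 0.05 ranged from 3 to 9 over the arrays left out. Without Tead1KO replicate 3 it was 8, with 1449 of all 18194 genes at that mark. For the other arrays left out the count over all genes is not given here, so the range does not set the members apart. The members' median was -0.011 with the covariate. The count of isoform pairs without overlap was 1 with a gene's probe sets averaged and 0 to 3 over the arrays left out. Fewer arrays make non-overlap easier by chance, so the latter counts do not compare with that over all arrays. Tead1 differed by -0.87 to -0.10 over the arrays left out.

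The labels do not say whether arrays with the same replicate number share a preparation. Their deviations correlated at 0.06, 0.35 and -0.20, and the acinar list mean was lowest in replicate 1 of both groups (12.30 in Flox, 12.45 in Tead1KO). Whether the numbers pair the arrays therefore cannot be told. With the replicate number as a block 97 genes passed and 1 member, Fbp2 (adjusted p = 0.0115). Tead1 stayed at -0.49.

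Of the 29 genes 16 kept their direction throughout, Fbp1, Fbp2, Gpd1, Aldoc, Pkm and Tkt among them. The reversals, all of differences that did not pass, were as follows, and their cause was not tested. With quantile normalization Hk2 was -0.074, Pfkm 0.063, Eno2 0.090 and Pgm1 0.082. With median centring Hk2 was -0.057 and Pfkp -0.033. With the covariate Pfkm was 0.00072, Pfkp -0.011, Pfkfb3 -0.073, Pfkfb4 0.061, Pgk1 0.033, Pgm1 0.025 and Taldo1 0.11. Averaged probe sets gave 0.072 for Pgm1. Slc2a3 was 0.034 once probe sets of less specific design (suffix _x_at or _s_at) were dropped, a setting that left none for Aldoa. Over the arrays left out Hk2 ranged from -0.10 to 0.11, Pfkm from -0.18 to 0.018, Pfkp from -0.072 to 0.11, Pfkfb3 from -0.090 to 0.40, Pfkfb4 from -0.32 to 0.011, Pgam2 from -0.021 to 0.32, Eno2 from -0.092 to 0.011, Eno3 from -0.37 to 0.021, Pgm1 from -0.17 to 0.050, Pgd from -0.028 to 0.28 and Taldo1 from -0.82 to 0.022.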
